A study of Mus musculus with 6 samples.

Results

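Collagen and laminin genes were examined in exome sequencing of bone marrow and matched ear from 3 mice with the P95H change of the splicing factor Srsf2. A gene was taken when its name had the form of a collagen chain or of a laminin alpha, beta or gamma chain and when any deposited list held a site in it with a predicted effect of LOW, MODERATE or HIGH impact, called a coding site here (splice regions included). This gave 34 genes, 26 collagens and 8 laminins, of 7552 genes with a coding site. RefSeq lists 55 genes with such names, and the other 21 (18 collagens and 3 laminins, among them Col1a1, Col2a1 and Lamb1) had no coding site in the lists used here. The 34 genes held 156 distinct coding sites, all 156 within the RefSeq span of the named gene in GRCm38.p6.

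Collagen chains wind into a triple helix that needs glycine, the smallest residue, as the first residue of each Gly-X-Y triplet, and a glycine replaced in the helix is a classic cause of dominant connective tissue disease in humans. Laminins are heterotrimers of an alpha, a beta and a gamma chain that polymerise into the basement membrane, where they meet the type IV collagen network, and their short arms carry EGF-like repeats held by cysteine bridges. In marrow these proteins form part of the stroma and vessel walls. The data are of DNA, so they hold changes in the genes and say nothing of their expression.

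Whole bone marrow of each animal was set against ear of the same animal, with 3 samples of each tissue. Animals 54 and 108 were males and animal 136 was a female, all labelled C57BL/6 and carrying Srsf2 P95H after tamoxifen given 50 to 60 weeks before, and all had become moribund. The sample labels give every animal R26-CreERT2, a driver active in most tissues, so that ear may carry the recombined allele too. The design text instead gives 1 of the 3 animals hScl-CreERT with R26eYFP, a driver aimed at blood stem cells, without saying which, and there was no animal without the Srsf2 change. Whole tissue was used, the share of recombined cells is not given, and DNA holds no marker by which to check the tissue. The protocol states capture with a 50 Mb exon kit at a mean depth of 100 reads. The median depth at collagen and laminin coding sites of animal 54 was 75.5 reads for marrow and 111 for ear. It was 110.5 for marrow and 105 for ear of animal 108, and 32 for either tissue of animal 136. No site in these lists had a depth under 11 reads, and the lists give no depth where nothing was called.

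The sequences of 3 insertions, 1 deletion and a promoter stretch with 2 variable bases are printed because a residue name does not show them. They are written 5′ to 3′, and capitals mark the inserted bases in the insertions and the variable positions in the promoter stretch. The first is the frameshift among the 35 Strelka calls, in exon 36 of 40 of Col6a5 (a chain of the beaded-filament type VI collagens, chr9:105875938-105875938, plus strand, GRCm38). The next lies in an intron beside an exon of Lama4, a laminin alpha chain of vessel walls (chr10:39047929-39047929, plus strand, GRCm38). The inherited insertion of Col16a1 lengthens a run of cytosines (chr4:130055091-130055095, plus strand, GRCm38). The Col17a1 deletion, called in marrow only, is shown by the repeat it shortens (chr19:47669265-47669278, plus strand, GRCm38). The last is a promoter stretch that ends where the RefSeq span of Col5a3 begins (RefSeq, chr9:20815118-20815147, minus strand, GRCm38.p6).
Col6a5 insertion, animal 136: aGACGTGT
Lama4 insertion, animal 54: cGCTTGGC
Col16a1 insertion, animal 54: gCcccc
Col17a1 listed allele before the deletion: ccagcagcagcagc
Col17a1 listed allele after the deletion: ccagcagcagc
Col5a3 promoter stretch: agCtgtgggtcccttccccgcccccctcTc

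The number of coding sites in these genes differed between animals far more than between tissues. Animal 54 had 72 sites in marrow and 71 in ear. In animal 108 the marrow had 48 and the ear 47, and in animal 136 the marrow had 8 and the ear 10. Marrow and ear of an animal thus lay within 2 sites of each other. The log2 ratio of marrow over ear was 0.020, 0.030 and -0.32 in animals 54, 108 and 136, a mean of -0.090 ± 0.20 (SD, n = 3). This did not pass the two-sided exact paired sign-flip permutation test (p = 1), and 3 pairs cannot give a p below 0.25. Their share of all coding sites was 1.06% (marrow) and 0.983% (ear) for animal 54. It was 0.462% (marrow) and 0.460% (ear) for animal 108 and 0.302% (marrow) and 0.352% (ear) for animal 136.

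Most of these sites were called in both tissues of an animal, and such sites are called inherited here. There were 95 distinct ones in 10 genes, 93 in 8 collagens and 2 in 2 laminins, of which 81 were found in 1 animal, 13 in 2 and 1 in 3. They comprised 29 missense changes, 45 synonymous changes, 20 in splice regions and 1 frameshift. They lay in a few genes, 92 of them in 7 genes with 3 or more sites, although the strain label is the same for all animals. The name rests on the calls alone, and whether each site is a germline allele was not tested. Some fractions were low in both tissues, as at the Lama5 site of animal 136 (26.3% in marrow and 23.5% in ear).

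**Figure D1:**
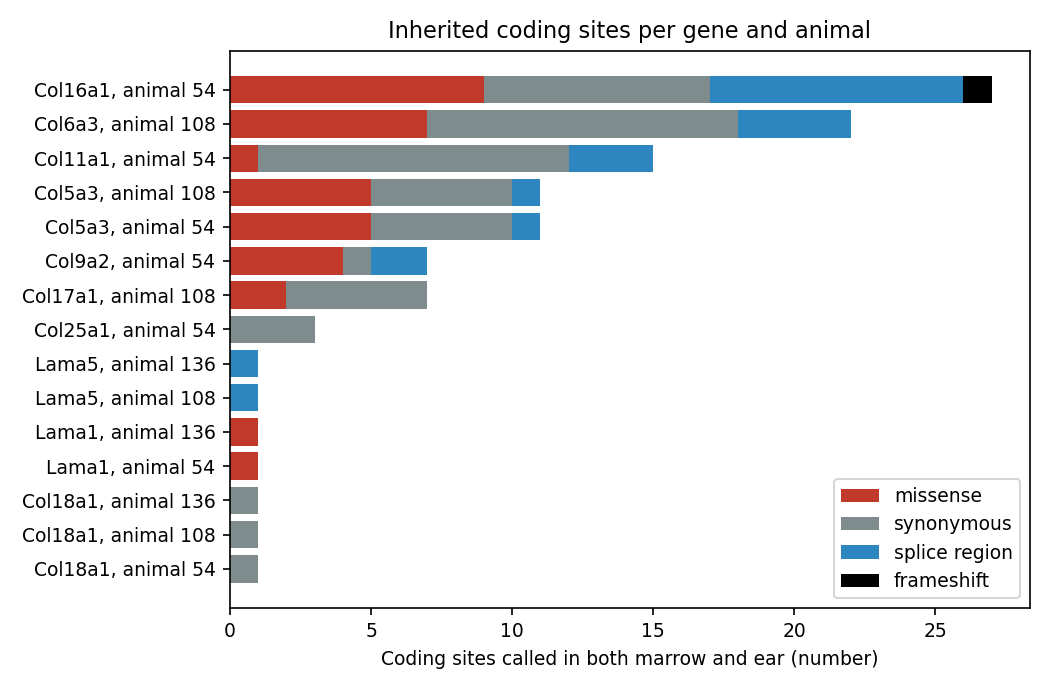
Number of coding sites called in both marrow and ear (horizontal axis) for each gene and animal (rows), with bar colours for the kind of change. Col16a1 in animal 54 has 27 sites and Col6a3 in animal 108 has 22, while Col18a1, Lama1 and Lama5 have 1 site in each animal that carries them.

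Col16a1, a collagen that sits on the surface of fibrils, had the most, with 27 sites over 43.1 kb, all in animal 54. They were 9 missense, 8 synonymous, 9 splice-region sites and the frameshift p.His8fs shown above, which like p.Ile16Val was annotated only on a short transcript. The missense changes on the long transcript included p.Arg140Gln in exon 6 of 70, which had 30 of 67 reads in marrow and 60 of 112 in ear. Codon 655 carried 2 neighbouring changes, p.Met655Thr with 59 of 119 reads in marrow and 108 of 173 in ear, and p.Met655Ile with 60 of 120 in marrow and 108 of 173 in ear. SnpEff annotated each alone, and their counts were nearly the same, so the codon as a whole may read otherwise. Such pairs also stood at Leu370 of Col11a1 and Ala482 of Col9a2. The median variant fraction over the 27 sites was 47.0% in marrow and 50.0% in ear. Counting all positions of the gene, coding or not, 207 sites were called in both tissues of animal 54, against 5 in animal 108 and 1 in animal 136.

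Col6a3, the long chain of type VI collagen that anchors cells to interstitial matrix, had 22 sites over 56.6 kb, all in animal 108, with 7 missense changes. The median fraction was 47.0% in marrow and 48.8% in ear. The 3 sites nearest the start of the protein, all in exon 2 of 44, were singled out after their values were seen. p.His24Arg had 9 of 25 reads in marrow and 15 of 18 in ear, p.Thr22Met had 10 of 26 and 16 of 19, and p.Leu17Phe had 10 of 28 and 17 of 21. All 3 were lower in marrow, at 35.7% to 38.5% against 81.0% to 84.2% in ear, and they are close enough to lie on the same reads. The neighbouring intron site, c.-28-7delC, had 7 of 11 reads in marrow and 7 of 10 in ear. Its exact binomial intervals were 30.8% to 89.1% in marrow and 34.8% to 93.3% in ear. Each spans the fractions of the exon sites in both tissues, so this site cannot show whether the gap extends to it. Its mapping quality was 33 in marrow and 35 in ear. None of the 3 exon sites passed, with adjusted p-values of 0.356, 0.301 and 0.317 (Fisher's exact test, two-sided, adjusted over all sites of the animal). Their mapping quality of 34 to 38 was below the 40 to 42 of most sites. The lowest p of the gene was at the synonymous p.Pro604Pro, with 74 of 159 reads in marrow and 74 of 111 in ear (exact p = 0.00123, adjusted 0.245).

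**Figure D2:**
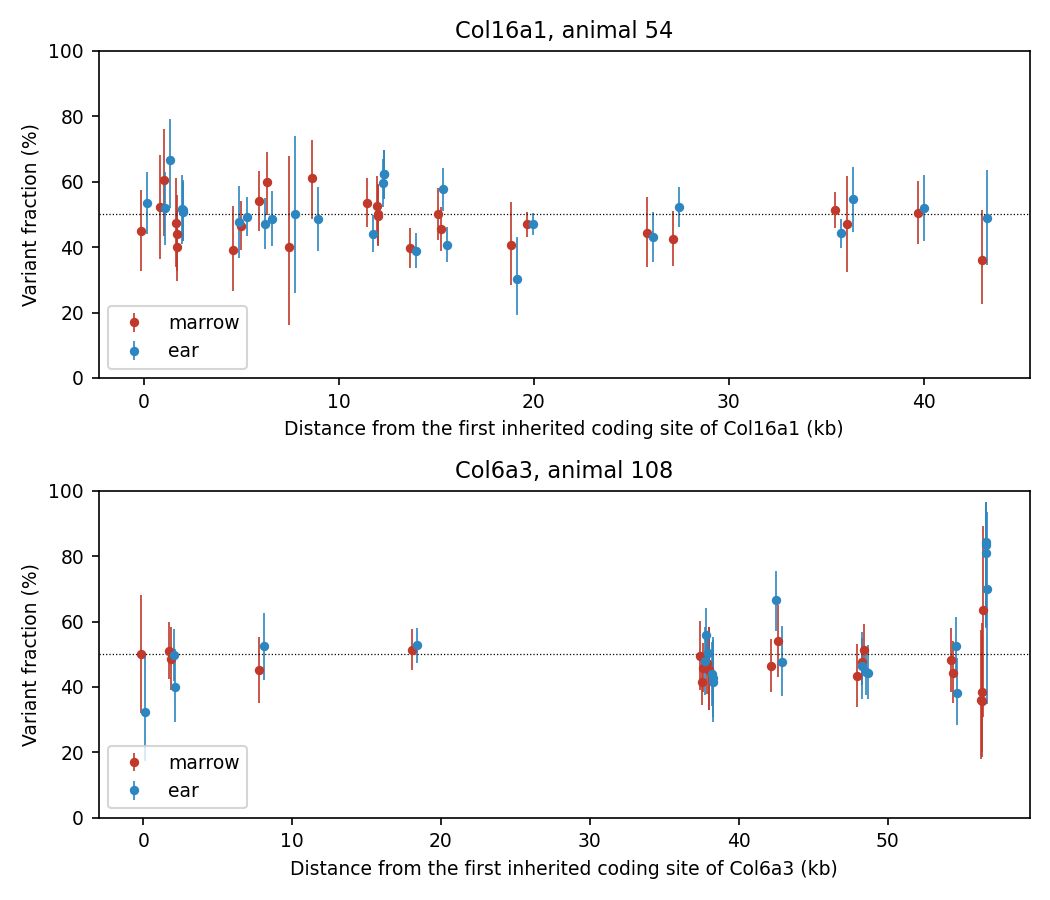
Variant fraction (% of reads) at each inherited coding site along Col16a1 in animal 54 (top) and Col6a3 in animal 108 (bottom), against distance from the first site in kb. Red points are marrow and blue points ear, drawn slightly apart, bars are exact 95% binomial intervals, and the dotted line is 50%. Most sites lie near the line in both tissues, and 3 of the 4 rightmost sites of Col6a3 lie at 81.0% to 84.2% in ear, with the last at 70%.

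The cartilage fibril gene Col11a1 carried 15 sites in animal 54, of which 11 were synonymous and 1 was missense (p.Leu370Val, 24 of 42 reads in marrow and 51 of 107 in ear). Its median fractions of 37.0% in marrow and 36.2% in ear were below those of Col16a1 in the same animal. Col9a2, a collagen of cartilage fibril surfaces, had 7 sites in animal 54, 4 of them missense, among which p.Arg610His had 92 of 156 reads in marrow and 99 of 196 in ear. Col17a1, the transmembrane collagen of hemidesmosomes in skin, had 7 sites in animal 108 with p.Thr1292Ile (86 of 184 and 104 of 213 reads in marrow and ear) and p.Asn1277Ser (93 of 208 and 99 of 206). Col25a1, a transmembrane collagen, had 3 synonymous sites in animal 54.

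Col5a3, which encodes a minor chain of type V fibrils, was the gene whose block of sites recurred. The same 11 sites, 5 missense and 5 synonymous among them, were called in animals 54 and 108 and in neither tissue of animal 136. Its missense changes crowded into exons 7 and 8 of 67. p.Gln322Lys had 61 of 142 reads in marrow and 80 of 199 in ear of animal 54, and 61 of 159 and 55 of 145 in animal 108. Median fractions over the 11 sites for animal 54 were 39.0% (marrow) and 40.7% (ear), and for animal 108 were 38.9% (marrow) and 39.7% (ear), with mapping qualities from 38 to 40. The part of mapping in these fractions was not tested. In the promoter, the second capital of the printed stretch lies 2 bases before the gene and had 8 of 22 variant reads in marrow of animal 108 and 5 of 14 in ear of animal 54, and the first lies 28 bases before it and had 7 of 18 in marrow of animal 108. Each was listed in only 1 tissue of its animal. Among 40 genes of these families with a RefSeq promoter window, 3 had any listed site in it. The share over the windows of all genes was not computed, so whether this is few or many cannot be said.

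The remaining 3 genes had a single inherited site each, and all 3 sites recurred. Col18a1, a basement membrane collagen that is the source of endostatin, carried p.Pro1378Pro in every animal. In animal 54 the variant took 148 of 148 reads in marrow and 208 of 208 in ear, whereas it took 60 of 114 and 73 of 131 in animal 108 and 84 of 162 and 44 of 100 in animal 136. Lama1, the laminin chain of early embryonic basement membranes, carried p.Asp656Asn with 29 of 74 reads in marrow and 40 of 88 in ear of animal 54, and 60 of 87 and 37 of 75 in animal 136. Lama5, the widespread adult alpha chain, had a splice-region site, c.2498-7A>C, whose fraction in animal 108 was 40.4% (marrow) and 29.2% (ear), and in animal 136 was 26.3% (marrow) and 23.5% (ear).

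The question of whether the inherited alleles were unequal between marrow and ear was put to each site. None of the 65, 42 and 3 member sites tested in animals 54, 108 and 136 passed an adjusted p of 0.05 in Fisher's exact test, where 0.0346%, 0.0327% and 0.0181% of all sites tested in these animals passed. At an unadjusted p under 0.05 there were 8 (12.3%), 6 (14.3%) and 1 (33.3%) of them, beside 8.41%, 7.43% and 6.22% of all sites. The lowest adjusted p was 0.378, 0.245 and 0.595. Sites of a gene lie on the same chromosomes and often on the same reads, so the members are not independent.

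**Figure D3:**
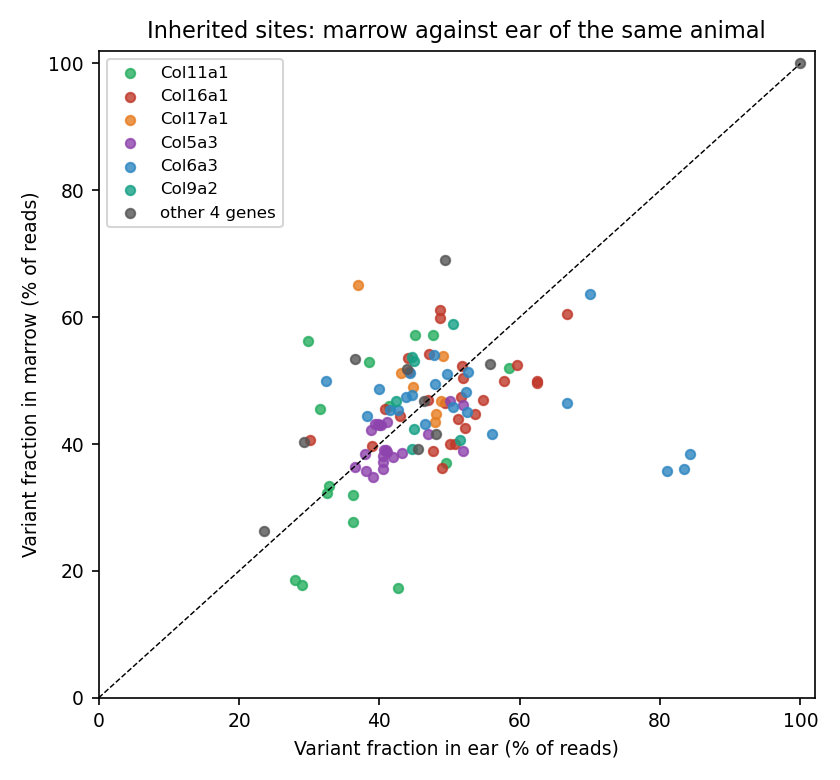
Variant fraction in marrow (vertical axis, % of reads) against ear of the same animal (horizontal axis) at the 110 inherited site and animal pairs, coloured by gene, with the line of equality dashed. Most points gather between 30% and 60% in both tissues, Col18a1 of animal 54 sits at 100% in both, and 3 sites of Col6a3 lie far below the line.

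Glycine changes were compared with changes of other residues in collagens, with synonymous sites as a rough measure of how often a codon was hit at all. This measure was not adjusted for how many of the possible changes of each codon are synonymous. No inherited missense change replaced a glycine, 0 of 28 (0 to 12.3%, exact 95% binomial interval), although 7 of 45 synonymous sites (15.6%, 6.49% to 29.5%) lay in glycine codons. These 7 were Gly467 and Gly704 of Col11a1, Gly1033 and Gly1198 of Col16a1, Gly913 of Col17a1, Gly595 of Col5a3 and Gly1019 of Col6a3. The odds ratio of missense against synonymous at glycine over other residues was 0 (0 to 1.04; two-sided Fisher's exact test, p = 0.0390). Adjusted over the 4 such exact tests made here, p was 0.0520, so the difference did not pass. In the same lists, 4.69% of 4584 inherited missense sites and 6.35% of 7670 inherited synonymous sites of all other genes were at glycine. The same odds ratio was 0.726 in those other genes, whereas the test compares with equal odds. For collagens, the exact p was 0.267 without animal 54 and 0.142 without animal 108.

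Strelka, one of the authors' somatic callers, gave 4 glycine changes among 16 collagen missense calls (25%, 7.27% to 52.4%), and 1 glycine codon, Gly50 of Col9a1, among 6 synonymous calls. Col3a1, the collagen of vessel walls and reticulin, had p.Gly860Asp in exon 37 of 51 in animal 108 (chr1:45340283). Col1a2, the second chain of type I collagen, had p.Gly550Cys in exon 28 of 52 in animal 108 (chr6:4524520). Col6a6, a type VI chain, had p.Gly475Val in exon 5 of 37 in animal 54 (chr9:105782321). Col7a1, the anchoring fibril collagen of skin, had p.Gly2141Asp in exon 78 of 118 in animal 54 (chr9:108973868). Their qualities were 20, 20, 29 and 15, none reached 30, and none stood in the all-variant list of its marrow, so they have no read counts here.

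Within the Strelka calls the odds ratio at glycine over other residues was 1.67 (0.115 to 98.3; two-sided Fisher's exact test, p = 1), an interval too wide to show a difference of moderate size. The glycine share of missense changes was 25 percentage points higher in Strelka calls than at inherited sites (25% and 0%; Fisher's exact test, p = 0.0134, adjusted 0.0268). The inherited missense sites clustered in a few genes, with 9 in Col16a1 and 7 in Col6a3, and linked sites were counted as independent. The p-values of this share difference are therefore too small. That difference passed with all calls and without animal 136 (33.3 points, exact p = 0.00542), and did not pass without animal 54 (exact p = 0.121), without animal 108 (16.7 points, exact p = 0.142), among calls of quality 30 or more (0 points, exact p = 1) and among base changes other than C to A (20 points, exact p = 0.0714). In other genes, glycine made up 6.74% of 2345 Strelka missense calls and 7.79% of 899 synonymous calls, an odds ratio of 0.856 at glycine over other residues. A further glycine change, p.Gly523Arg of Col5a3, stood only in ear of animal 108 (4 of 39 reads). Where a collagen had 2 glycine codons hit, the residues lay 237 (Col11a1), 165 (Col16a1) and 72 (Col5a3) apart, all multiples of 3, but no protein sequence was used, so which glycines belong to a helix was not assessed.

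**Figure D4:**
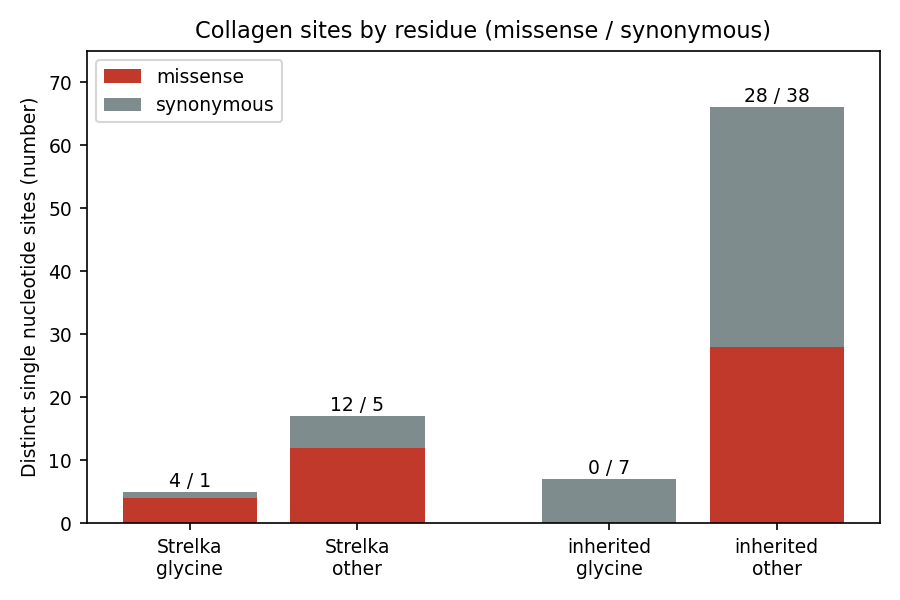
Number of distinct single nucleotide sites in collagens (vertical axis) at glycine and at other residues, in Strelka calls (left pair) and inherited sites (right pair), with missense in red and synonymous in grey. The numbers on the bars give missense and synonymous sites: 4 and 1 at glycine in Strelka calls, and 0 and 7 at inherited glycine codons.

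Strelka called 35 coding changes in these genes, 13, 11 and 11 in animals 54, 108 and 136 (mean 11.7 ± 1.15, SD, n = 3), or 0.773%, 1.24% and 0.884% of its coding calls. Unlike the inherited sites, they were spread over the animals and over 24 genes, 18 collagens and 6 laminins, with 25 and 10 calls. Strelka coding calls were spread in all genes too, with 3835 calls in 3112 protein-coding RefSeq genes. The 35 calls held 21 missense, 8 synonymous, 3 splice-region and 3 high-impact changes. Quality ran from 15 to 75 with a median of 24, and 10 calls reached 30. The median quality of all Strelka coding calls was 27, 24 and 23 in animals 54, 108 and 136. Of 33 single nucleotide calls, 12 were C to A and 12 were C to T (strands folded together). C to A made up 50%, 36.4% and 20% of them in animals 54, 108 and 136. Among all single nucleotide coding calls of Strelka, the C to A share was 40.1%, 40.0% and 39.2%.

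**Figure D5:**
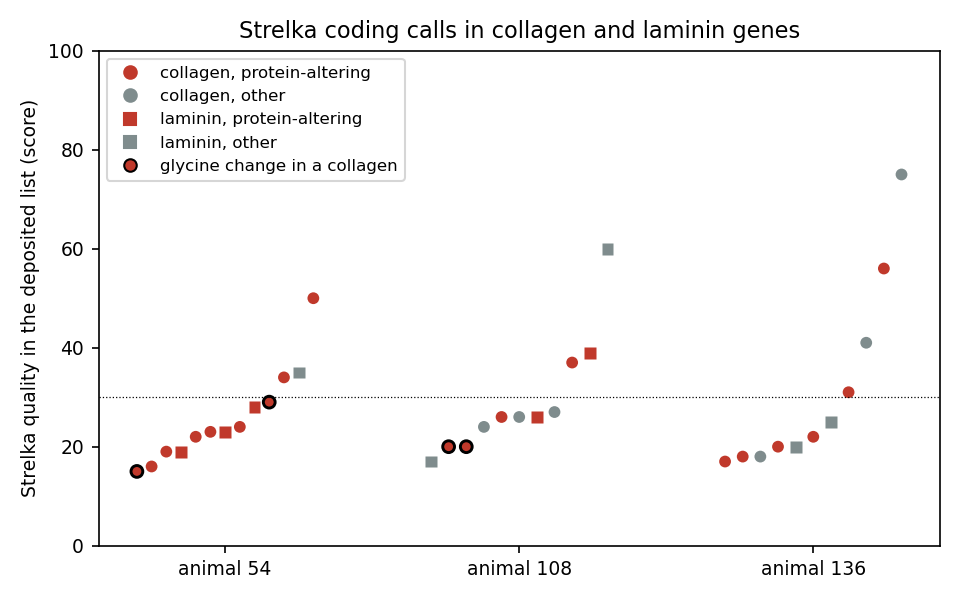
Strelka quality (vertical axis, the deposited score) of each of the 35 coding calls by animal, with circles for collagens, squares for laminins, red for protein-altering and grey for other calls. The dotted line is a quality of 30, 10 calls lie above it, and the 4 glycine changes (black rims) lie below it.

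Among single nucleotide sites, the Strelka calls held 23 protein-altering to 8 synonymous changes (a ratio of 2.88) and the inherited sites 29 to 45 (0.644). The odds ratio was 4.46 (1.63 to 12.99; two-sided Fisher's exact test, p = 0.00130, adjusted 0.00520), and other genes had ratios of 2.91 in Strelka calls and 0.614 at inherited sites. It was 2.02 without animal 54 (exact p = 0.265) and 2.59 at a quality of 30 or more (exact p = 0.266). Against the sites called only in ear, with 10 protein-altering and 2 synonymous changes, it was 0.575 (exact p = 0.698). Linked inherited sites were counted as independent, so the p-values against inherited sites are too small.

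The 3 high-impact Strelka calls were the Col6a5 frameshift p.Leu2245fs in animal 136 (quality 31), a splice acceptor change c.928-2A>G of Col19a1 in animal 136 (quality 18) and a splice acceptor change c.4081-2A>G of Col11a1 in animal 54 (quality 24). Col19a1 encodes a collagen of the fibril-associated class. Col6a5, Col3a1, Col9a2 and Lamc3 had protein-altering calls in 2 animals each, at different residues. The share of all genes with such calls in 2 animals was not computed, so whether this is few or many cannot be said. Col6a5 had p.His2258Tyr and p.Ser1382Ile in animal 54 and p.Cys1223Tyr beside the frameshift in animal 136. Col3a1 had p.Gln816Lys in animal 54 and the glycine change in animal 108, and Col9a2 had p.Arg197Gln in animal 54 and p.Leu10Pro in animal 136.

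The laminin calls included 2 missense changes that made or removed a cysteine, both in Lamc3, a gamma chain. They were p.Arg423Cys in exon 6 of 28 in animal 108 (quality 39) and p.Cys441Phe in exon 7 of 28 in animal 54 (quality 28). Further laminin missense calls were p.Gln1970Lys of Lama1 and p.Pro2660Thr of Lama3, which encodes a chain of the laminin that anchors the epidermis. Lamb3, a laminin beta chain of skin, had p.Cys528Tyr at 12 of 61 reads in ear of animal 136 and was not called in its marrow.

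Only 5 of the 35 Strelka calls stood in the all-variant list of the marrow and none in that of the ear. In animal 54 these were p.Gln816Lys of Col3a1 (6 of 49 reads), p.Cys441Phe of Lamc3 (4 of 39), p.Val1394Phe of Col4a2, a type IV basement membrane chain (8 of 76), and p.Ser1382Ile of Col6a5 (6 of 53). In animal 108 it was the synonymous p.Arg106Arg of Col17a1 (4 of 41). All 5 fractions lay between 9.76% and 12.2%.

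VarScan2, the other somatic caller, gave no coding call in these genes among 113, 156 and 56 somatic coding calls in animals 54, 108 and 136. A count of 0 allows shares of up to 2.65%, 1.92% and 5.36% (3 calls of the total), above the Strelka shares, so the callers cannot be told to differ in the share at this number of calls. No change was therefore called by both. VarScan2 listed 15 noncoding positions annotated to genes of these families, 13 marked somatic and 2 marked as loss of heterozygosity. Their share of all its noncoding positions was not computed, so whether this is few or many cannot be said. Some marked somatic also had variant reads in ear, as in Col17a1 (6 of 30) and Col25a1 (8 of 48), and others had none. The 2 losses were both in animal 108 (the authors' deposited read counts). An intron position of Col4a1 had 10 of 11 variant reads in marrow and 3 of 15 in ear. An intron position of Col6a3 had 7 of 9 and 4 of 17. The same Col4a1 position was also called in both tissues of animal 54 (40% in marrow and 70% in ear). In animal 136 it was called in both as well (66.7% and 77.8%). No Col4a1 site of animal 108 passed the per-site test used here.

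A further 36 calls, at 31 distinct sites, stood in a single tissue of an animal, 18 in marrow and 18 in ear (7 and 6, 6 and 5, and 5 and 7 in animals 54, 108 and 136). Their fractions ran from 9.76% to 31.2% with a median of 16.7%, and 9 rested on 2 variant reads. Several recurred in different tissues of different animals. The splice acceptor change c.2197-2A>T of Lama2, the main laminin alpha chain of muscle, had 5 of 24 reads in marrow of animal 108, 10 of 32 in ear of animal 54 and 6 of 22 in ear of animal 136. The splice acceptor of Col6a4 (c.3068-2A>C) had 4 of 13 reads in marrow of animal 136 and 4 of 15 in ear of animal 54, where the next base (c.3068-1G>C) was also called with 4 of 15 reads. The splice-region change c.1753-8C>T of Col19a1 had 10 of 50 and 4 of 23 reads in marrow of animals 108 and 136 and 8 of 41 in ear of animal 54. The other high-impact calls of this kind were p.Gln1332* of Col18a1 in marrow of animal 108 (2 of 11 reads), p.Ser179* of Col4a3 in ear of animal 54 (5 of 25, on a transcript of 197 residues) and a splice donor change, c.7048+1G>A, of Lama5 in ear of animal 136 (4 of 33). The in-frame deletion p.Leu485del of Col17a1, shown above, had 2 of 14 reads in marrow of animal 54.

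The enzymes and partners of these proteins were taken from 4 lists. As background, 13.3% of 21900 protein-coding RefSeq genes had an inherited coding site, 14.2% had a Strelka coding call, and 70.5% of 3835 Strelka coding calls were protein-altering. For the 55 collagen and laminin genes the shares were 18.2% and 43.6% of genes and 68.6% of calls. Gene length was not taken into account, so these shares are descriptions. Of 32 genes of collagen biosynthesis and processing, 8 (25%) had inherited coding sites (27 sites, 7 missense) and 7 (21.9%) had Strelka calls (8 calls, 3 protein-altering). Of 14 basement membrane partners, 2 (14.3%) had inherited sites (16 sites, 2 missense) and 5 (35.7%) had Strelka calls (11 calls, 9 protein-altering). Of 15 collagen and laminin receptors, 1 (6.67%) had an inherited site and 3 (20%) had a Strelka call each. Of 7 collagenases and gelatinases, 2 (28.6%) had inherited sites (9 sites) and 3 (42.9%) had a Strelka call each. VarScan2 called 1 coding change in the 4 lists, in a biosynthesis gene. None of the 32, 18, 1 and 9 site tests of these lists passed the comparison of marrow with ear.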

How the data were processed

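Genomic DNA of marrow and ear of 3 mice was captured and sequenced. Bowtie2, SAMtools and FastQC were used, and mm9 and GRCm38 are both given as builds, per the submitters' processing notes. Positions matched gene spans in GRCm38.p6. Per the file headers, the authors' all-variant lists of each sample were annotated with SnpEff and give deposited read counts per allele. The authors' Strelka lists give a quality score and no read count, and their deposited VarScan2 lists give read counts, variant percent and a somatic p-value for marrow against ear. How either caller was filtered is not stated in the labels or headers.

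Each site was reduced to its annotation of highest impact, with ties going to the longest protein. Variant fractions are variant reads over reads of both alleles, and per-site tests needed at least 10 reads in each tissue. Tests were Fisher's exact test, with Benjamini-Hochberg adjustment over all sites of an animal (31835, 48977 and 11026 sites) and a threshold of 0.05, and an exact sign-flip test over animals. Intervals at 95% are Clopper-Pearson for shares and exact conditional for odds ratios. They cover counting error only, as the reads carry no molecular identifiers and may repeat 1 molecule. Tests that count sites treat linked sites as independent, so their p-values are too small. Marrow and ear were paired by animal, per the labels, and over 4444 sites called in all samples their deviations from tissue means correlated at 0.153, 0.196 and 0.111 in animals 54, 108 and 136. Marrow and ear of different animals correlated at -0.125 to -0.022. Deviations from a mean over so few animals by themselves lower the values between animals. Each animal is a separate mouse, with 1 sample per tissue.

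Named genes were those with a glycine change, a high-impact site, an inherited missense site, protein-altering Strelka calls in at least 2 animals, or the most inherited sites. Other genes, such as Col25a1, Lama3, Lamb3 and Col4a2, were named after their values were seen. Of the laminin calls, 1 is counted but not reported by name here. The genes, lists and tests were chosen with earlier results of these data known. Computation used Python 3.11.15, SciPy 1.17.1 and pandas 2.3.3, and the per-site test was checked on simulated data. The simulated reads held counting error only, so the check does not cover any further spread in the real reads.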

Additional observations from a re-analysis of the deposited data

How the results depend on the processing

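None of these genes' sites passed the comparison of marrow with ear at 20 or more reads. With counts of 0 in every animal, leaving an animal out could not change that count or that of VarScan2 coding calls. The log2 ratio of site numbers changed sign: it was 0.026 at 20 or more reads (exact p = 1), -0.18 with MODERATE and HIGH impact only (exact p = 1), and -0.15 to 0.025 with an animal left out, positive without animal 136. Without the replicate block, as an unpaired exact test, the ratio was -0.090 (p = 1). For the glycine comparison at inherited sites, the odds ratio was 0 in each alternative, with exact p = 0.267 without animal 54 and 0.142 without animal 108. In Strelka calls the glycine odds ratio was 0.4 to 1.67 with an animal left out, below 1 without animal 108. No finite ratio could be had without animal 136 or at quality 30 or more. The glycine share difference was 16.7 to 33.3 points with an animal left out, 0 points at quality 30 or more (exact p = 1) and 20 points without C to A changes (exact p = 0.0714). The odds ratio of protein-altering to synonymous changes was 2.02 to 6.98 with an animal left out, 2.59 at quality 30 or more (exact p = 0.266) and 0.575 against ear-only sites (exact p = 0.698). Strelka calls averaged 3.33 per animal at quality 30 or more. The cause of these shifts was not tested, though fewer calls remain in each subset. Limiting the glycine comparisons to Gly-X-Y repeats was not run, as no protein sequences were used. Depth limits each site: at tested sites the median was 86 reads (marrow) and 116 (ear) for animal 54, 114.5 and 118.5 for animal 108, and 87 and 75 for animal 136.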
